A study of Mus musculus with 29 samples.

Results

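The genes described here are 3 genes of cholinergic neurons, Slc18a3, Lhx8 and Isl1, and 2 acetylcholine receptor genes, Chrnb2 and Chrm1. They were chosen by gene symbol, and the array carries 6 probe sets for these 5 genes, out of 22626 probe sets tested and 12393 genes with a probe set of a single symbol. Isl1 has 2 probe sets, and every other member has 1. All 6 were measured on all 29 arrays, with no filter on low signal.

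Each array profiled total RNA of 1 brain region: 18 Affymetrix expression arrays cover the prefrontal cortex, and 11 cover the caudate-putamen, the main input part of the striatum. The mice were of the parent strain FVB/N or of 2 transgenic lines on that background. TgS mice express human AChE-S and TgR mice human AChE-R, which are splice variants of acetylcholinesterase, the enzyme that breaks down acetylcholine. MPTP is a toxin whose metabolite damages dopamine neurons, and it was given in 4 injections of 20 mg/kg at 2 h intervals, 80 mg/kg in all, with tissue taken 4 days after injection. The unexposed arrays are labelled naive, and whether these were the saline-injected mice of the protocol is not given in the sources used here. Age, sex, the promoter of each transgene and the number of mice per array are likewise not given. There are 4 naive prefrontal arrays for each strain, 1 array of TgR caudate-putamen after MPTP, and 2 arrays for every other group. Nothing states that arrays of a group came from separate mice, so the p-values measure the spread between arrays, which may be technical.

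Acetylcholine is made in the striatum by local interneurons, and in the cortex it comes mostly from axons of basal forebrain neurons whose cell bodies lie elsewhere. Lhx8 and Isl1 encode LIM-homeodomain transcription factors that act together to specify cholinergic neurons of the forebrain. Isl1 is also expressed in developing striatal projection neurons. Slc18a3 encodes the vesicular acetylcholine transporter, which loads acetylcholine into synaptic vesicles. Chrnb2 encodes the beta2 subunit of neuronal nicotinic receptors, which are acetylcholine-gated ion channels, and Chrm1 encodes the M1 muscarinic receptor, which signals through Gq proteins and is abundant in cortical pyramidal neurons.

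The sequence just upstream of the start site is shown for the 3 cholinergic genes, which were high in the same arrays, and for Chrnb2, which was not. RefSeq sequences (GRCm38.p6) matched 4 of the 5 members. Each is 250 bases long, ends at the base before the annotated start, and is read from the minus strand. Slc18a3 lies at chr14:32464851-32465100, Lhx8 at chr3:154330561-154330810, Isl1 at chr13:116309689-116309938 and Chrnb2 at chr3:89764633-89764882. Slc18a3 lies within the annotated span of Chat, the gene of the acetylcholine-synthesising enzyme, on the same strand. Capitals mark GGGCGG (a GC box, read on the other strand as CCGCCC) and CCAAT.
Slc18a3: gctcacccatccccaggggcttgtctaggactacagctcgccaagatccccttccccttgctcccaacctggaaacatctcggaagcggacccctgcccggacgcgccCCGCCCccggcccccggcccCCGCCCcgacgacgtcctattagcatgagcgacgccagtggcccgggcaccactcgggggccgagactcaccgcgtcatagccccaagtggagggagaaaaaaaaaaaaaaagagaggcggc
Lhx8: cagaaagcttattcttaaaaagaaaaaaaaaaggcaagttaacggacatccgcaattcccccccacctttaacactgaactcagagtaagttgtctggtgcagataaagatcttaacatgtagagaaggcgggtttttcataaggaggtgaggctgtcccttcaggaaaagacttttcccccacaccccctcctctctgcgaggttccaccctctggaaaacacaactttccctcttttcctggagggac
Isl1: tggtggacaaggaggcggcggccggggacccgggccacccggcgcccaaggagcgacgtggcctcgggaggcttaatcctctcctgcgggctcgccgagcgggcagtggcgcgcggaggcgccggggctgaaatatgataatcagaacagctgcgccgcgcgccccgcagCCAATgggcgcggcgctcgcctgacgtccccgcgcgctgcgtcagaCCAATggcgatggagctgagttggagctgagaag
Chrnb2: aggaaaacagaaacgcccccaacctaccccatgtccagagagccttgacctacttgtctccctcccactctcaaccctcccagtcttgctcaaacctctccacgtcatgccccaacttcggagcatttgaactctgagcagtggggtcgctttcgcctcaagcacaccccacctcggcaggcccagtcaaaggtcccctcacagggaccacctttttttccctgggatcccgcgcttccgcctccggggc
Besides these, the cores TAATTA and TAATTG, which homeodomain proteins bind, were searched for, as was the TATA box sequence TATAAA. Both strands were read, and no match overlapped another. Slc18a3 held 2 copies of GGGCGG, which 32.7% of the 32851 RefSeq windows of this length hold, and Isl1 held 2 copies of CCAAT, which 33.8% hold. TAATTA (4.84% of windows), TAATTG (7.17%) and TATAAA (12.4%) were not present in these letters of the 4 members. The GC content was 66% for Slc18a3, 46% for Lhx8, 71.2% for Isl1 and 59.6% for Chrnb2, against a median of 52.4% over all windows.

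Several features of the arrays bear on the values. The median log2 signal lay between 7.61 and 7.78 on all 29 arrays. The source labels spell naive prefrontal replicates 3 and 4 differently from replicates 1 and 2 and from all MPTP prefrontal arrays. Naive prefrontal replicates 1 and 2 stood apart in all 3 strains. Xist read 8.62 to 10.61 on these 6 arrays and 6.78 to 7.24 on the other 23. The Y-linked Kdm5d read 3.58 to 4.32 against 7.20 to 7.76. High Xist with low Kdm5d is the female pattern, and the reverse the male pattern. By these genes the 6 arrays differ in sex from all MPTP and all caudate-putamen arrays. The part of sex in the prefrontal MPTP and regional values was not tested. Gdpd3 was picked because it separated TgS from the other strains in earlier work on these data. It read 5.63 and 5.70 on naive prefrontal FVB/N replicates 1 and 2 and 9.76 to 10.46 on the other 17 FVB/N and TgR arrays. It read 8.32 on TgS naive prefrontal replicate 2 and 5.34 to 6.40 on the other 9 TgS arrays. Gdpd3 is a single transcript. Other transcripts that separate the strains followed the labels, though their values are not shown here, and all arrays kept their labelled strain. The description of caudate-putamen FVB/N naive replicate 2 calls it MPTP-exposed, whereas its title, source and treatment label call it naive, and it was kept as naive. Summed markers of striatal projection neurons (6 measured) were at 14.66 to 15.03 in the caudate-putamen and 11.37 to 13.10 in the prefrontal cortex. Summed markers of cortical glutamatergic neurons (5 measured) were at 11.20 to 11.95 and 12.51 to 13.14, so both regions carried the markers of their labels. Other markers varied within the prefrontal cortex. Olfactory bulb projection neuron sums (3 measured) read 7.73 to 11.74 there and 7.66 to 8.52 in the caudate-putamen. In naive TgS they read 11.74 and 11.29 on prefrontal replicates 1 and 2 and 8.88 and 7.73 on replicates 3 and 4. Prefrontal thalamic sums (7 measured) read 10.40 to 12.35 and hypothalamic sums (4 measured) 9.86 to 11.97. The part of these markers in the member values was not tested.

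The cholinergic genes were much higher in the caudate-putamen than in the prefrontal cortex, in every strain and with or without MPTP. In naive mice Lhx8 was 20.3-fold, Isl1 20.8-fold and Slc18a3 3.65-fold higher, while neither receptor gene passed the test. All values are log2 signals, differences are log2 differences with their standard error from limma, and a call means an adjusted p under 0.05 (Benjamini-Hochberg over the 22626 probe sets). The regions differ widely in these data: 51.8% of probe sets were called between naive regions and 25.3% were called higher in the caudate-putamen, so that a call alone is common. After MPTP these shares were 43% and 23.2%. Between naive regions 65% were called with naive prefrontal replicates 1 and 2 alone and 53.2% with replicates 3 and 4 alone. By size of the naive difference, Isl1 ranked 4th, Lhx8 5th and Slc18a3 109th of the 22626 probe sets. In bulk tissue, fewer cells of a type and less RNA per cell cannot be told apart.

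Lhx8 read 7.99 and 8.61 in naive FVB/N caudate-putamen, 9.03 and 9.16 in TgS, with 8.87 and 9.04 in TgR. In the prefrontal cortex of the same strains the 4 naive arrays read 5.68, 4.33, 4.35 and 4.08 in FVB/N, 4.91, 4.29, 4.27 and 4.13 in TgS, with 4.62, 4.66, 3.97 and 4.03 in TgR. The regions did not overlap, and the nearest arrays were still more than 2 log2 units apart. The difference was 4.34 ± 0.15 (adjusted p = 8.2e-15, limma), and the MPTP arrays gave 4.33 ± 0.18 (adjusted p = 5.3e-13, limma). No detection calls were used here, so whether the low prefrontal signal lay above background is unknown.

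Isl1 read 10.03 and 10.16 in naive FVB/N caudate-putamen, 10.41 and 10.33 in TgS, with 10.47 and 10.37 in TgR, all on its brighter probe set. In the naive prefrontal cortex it read 7.55, 5.84, 5.37 and 5.34 in FVB/N, 6.54, 5.95, 5.45 and 5.53 in TgS, with 6.07, 6.72, 5.39 and 5.23 in TgR. Replicates 1 and 2 were thus above replicates 3 and 4 in every strain, and all lay far below the caudate-putamen. The regional difference was 4.38 ± 0.17 (adjusted p = 6.1e-14, limma) and 4.70 ± 0.21 after MPTP (adjusted p = 1.3e-12, limma). The second probe set gave a smaller difference in the same direction, 2.43 ± 0.06, or 5.40-fold (adjusted p = 4.1e-16, limma). With naive replicates 3 and 4 as the only prefrontal reference the first probe set gave 4.91, and with replicates 1 and 2 it gave 3.85. Summed striatal markers moved the same way within the prefrontal cortex, at 12.11 to 13.10 in replicates 1 and 2, 11.64 to 11.88 in replicates 3 and 4 and 11.37 to 11.77 after MPTP, and their part in the Isl1 and Lhx8 values was not tested.

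Slc18a3, the transporter, read 7.19 and 7.54 in naive FVB/N caudate-putamen, 8.10 and 7.94 in TgS, with 7.32 and 7.52 in TgR. Its naive prefrontal arrays read 6.27, 5.64, 5.62 and 5.63 in FVB/N, 5.98, 5.67, 5.57 and 5.83 in TgS, with 5.86, 5.67, 5.45 and 5.61 in TgR. Again no prefrontal array reached the lowest caudate-putamen array. The difference was 1.87 ± 0.08 in naive mice (adjusted p = 5.6e-13, limma) and 1.41 ± 0.10 after MPTP (adjusted p = 1.7e-09, limma).

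**Figure D1:**
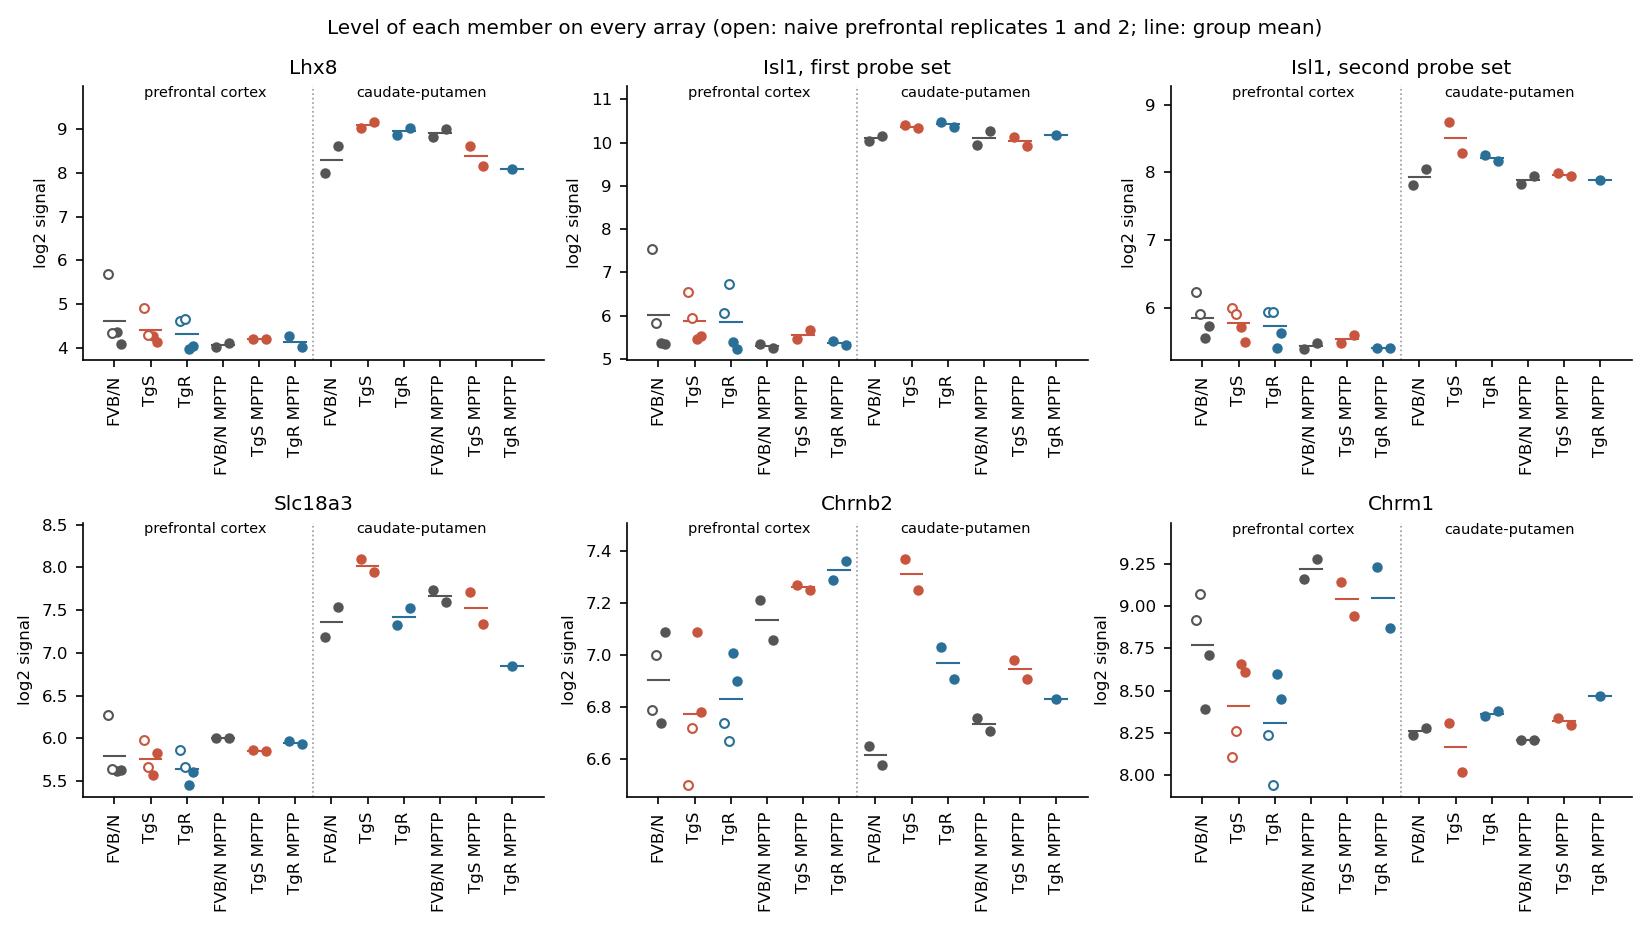
Log2 signal (y axis) of each member probe set on every array, by region, treatment and strain (x axis); open circles are naive prefrontal replicates 1 and 2, and a line marks the group mean. Lhx8, Isl1 and Slc18a3 separate the regions completely, while Chrnb2 and Chrm1 overlap between naive regions and are high in the 6 MPTP prefrontal arrays.

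The list of cholinergic neuron identity genes behaved alike. All 7 measured genes of the 12 listed were called higher in the naive caudate-putamen, with a median difference of 1.02 against -0.02 over all probe sets. Besides the 3 members they are Slc5a7, the high-affinity choline transporter (1.02 ± 0.10), Ngfr, the low-affinity neurotrophin receptor (0.64 ± 0.09), Zic4 (0.57 ± 0.07) and Nkx2-1, a transcription factor of the embryonic medial ganglionic eminence (0.18 ± 0.06), which also stands in the list of septal and pallidal markers. The count was 7 of 7 with naive prefrontal replicates 3 and 4 alone and 6 of 7 with replicates 1 and 2 alone, where Nkx2-1 was not called. It was 7 of 7 after MPTP. Earlier results of these data were known when the list was written. No probe set of a single symbol was found for Chat, so the acetylcholine-synthesising enzyme was not analysed here.

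Genes of acetylcholine breakdown followed in part. Ache, the mouse acetylcholinesterase gene, was 0.86 ± 0.07 higher in the naive caudate-putamen, and Prima1, which anchors the enzyme in the membrane, was 0.66 ± 0.06 higher. Colq, which encodes its collagen tail, was 0.12 ± 0.04 lower, but was not called with naive prefrontal replicates 3 and 4 alone (-0.065), and Bche, the gene of butyrylcholinesterase, was not called.

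The receptor members showed no such regional split in naive mice. Chrnb2 read 6.65 and 6.58 in naive FVB/N caudate-putamen, 7.37 and 7.25 in TgS, with 7.03 and 6.91 in TgR. Its naive prefrontal arrays read 6.79, 7.00, 6.74 and 7.09 in FVB/N, 6.50, 6.72, 7.09 and 6.78 in TgS, with 6.74, 6.67, 7.01 and 6.90 in TgR. The regions overlapped, and the difference of 0.13 ± 0.06 was not called (95% interval 0.0018 to 0.26, adjusted p = 0.083, limma). It was called at 0.23 with naive prefrontal replicates 1 and 2 alone (adjusted p = 0.0012, limma) and was 0.03 with replicates 3 and 4 alone. The order of the regions differed by strain: FVB/N caudate-putamen lay below all FVB/N prefrontal arrays, and TgS caudate-putamen lay above all TgS prefrontal arrays.

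Chrm1 read 8.24 and 8.28 in naive FVB/N caudate-putamen, 8.31 and 8.02 in TgS, with 8.35 and 8.38 in TgR. Its naive prefrontal arrays read 8.92, 9.07, 8.39 and 8.71 in FVB/N, 8.11, 8.26, 8.66 and 8.61 in TgS, with 8.24, 7.94, 8.60 and 8.45 in TgR. Only FVB/N held all its prefrontal arrays above its caudate-putamen arrays. The difference was -0.23 ± 0.10 and was not called (95% interval -0.45 to -0.02, adjusted p = 0.066, limma), but it was called with replicates 3 and 4 alone, at -0.31 (adjusted p = 0.0015, limma).

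Among MPTP arrays both receptor members were lower in the caudate-putamen. Chrnb2 differed by -0.40 ± 0.08 (adjusted p = 0.00024, limma) and Chrm1 by -0.77 ± 0.13 (adjusted p = 7.1e-05, limma). Of the 3 measured muscarinic receptor genes, Chrm4, the M4 receptor, was 0.72 ± 0.12 higher in the naive caudate-putamen and Chrm3, the M3 receptor, 0.55 lower. The Chrm3 difference was -0.11 and not called with naive prefrontal replicates 1 and 2 alone, and -0.99 with replicates 3 and 4 alone. Of 14 measured nicotinic subunit genes, 1 was higher (Chrne, 0.22) and 4 lower in the naive caudate-putamen, where 26.6% of all probe sets were lower, near the share of 4 in 14. Chrna4, the usual partner of the beta2 subunit, was lower by 0.50 and Chrna5, an accessory subunit, by 0.65, which are log2 differences. The other 2 were Chrna6 and Chrnd, lower by 0.16 and 0.17. The dimmer Chrna6 probe set did not share this, with means of 5.378 in naive caudate-putamen and 5.385 in naive prefrontal cortex. The calls of Chrna6 and Chrnd were lost with replicates 3 and 4 alone (-0.09 and -0.047) and that of Chrne with replicates 1 and 2 alone (0.058).

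**Figure D2:**
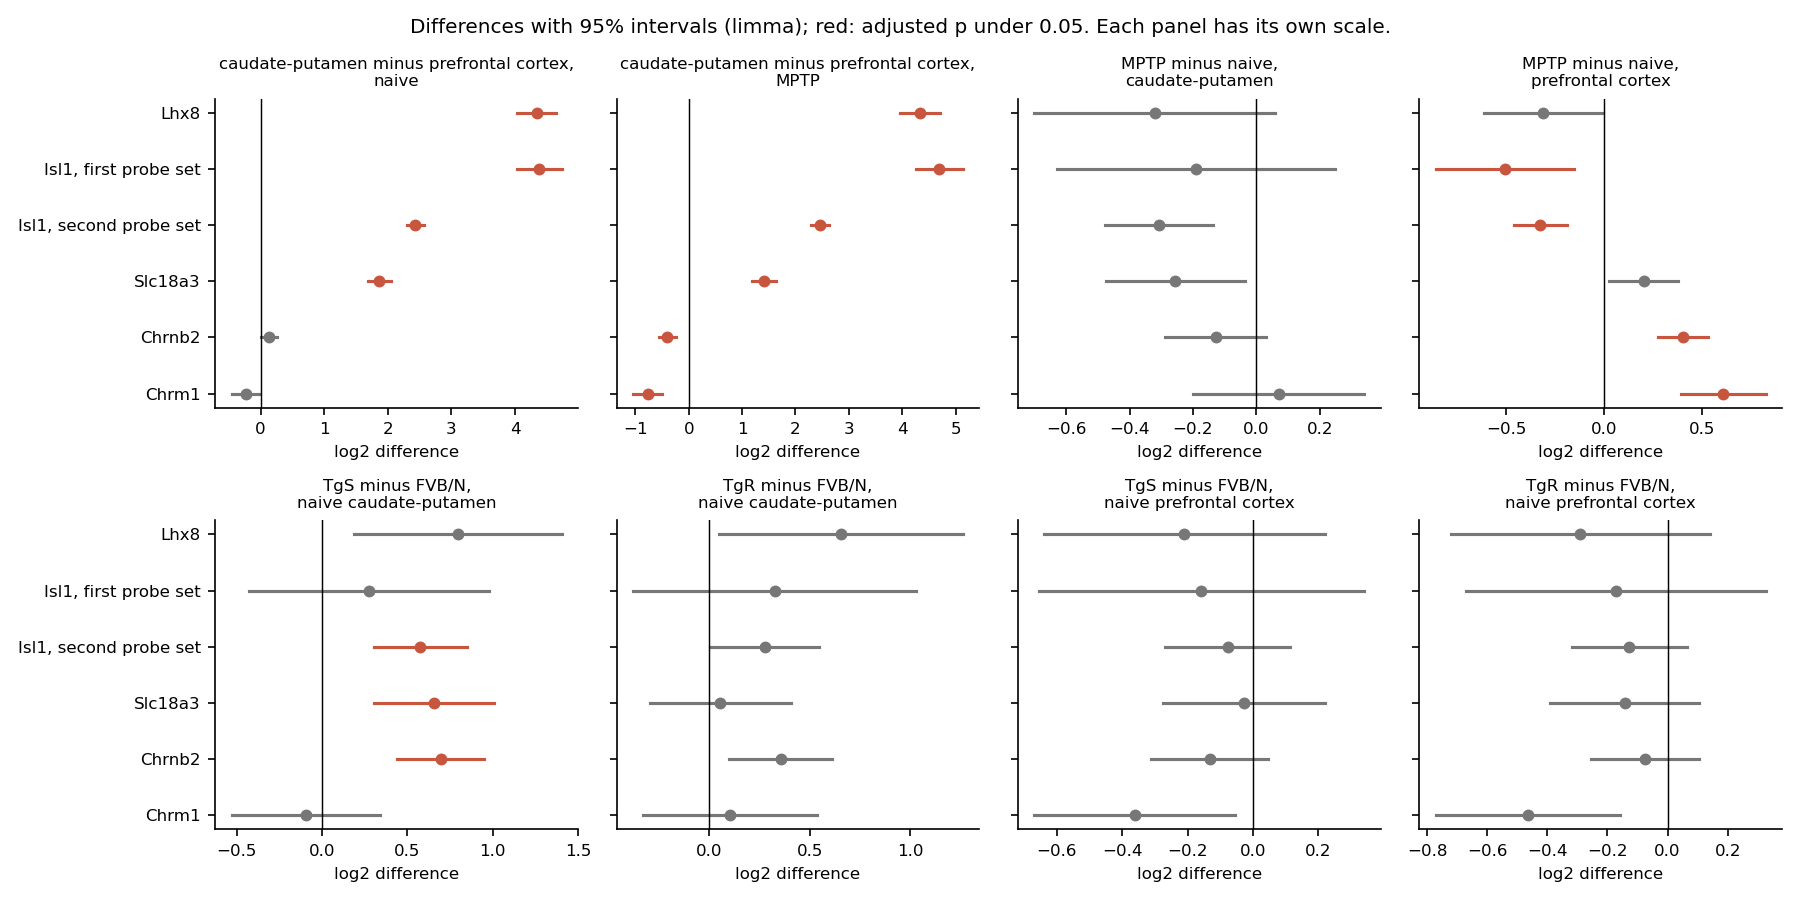
Log2 differences (x axis, a separate scale in each panel) of the 6 member probe sets (y axis) in 8 comparisons, with 95% intervals from limma; red marks an adjusted p under 0.05. The cholinergic genes differ by 1.41 to 4.70 between regions, the receptor genes rise by 0.40 and 0.61 in the prefrontal cortex after MPTP, and no member is called between MPTP and naive caudate-putamen.

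MPTP-exposed prefrontal cortex had more Chrnb2 and Chrm1 signal than naive prefrontal cortex. Averaged over strains, Chrnb2 rose 1.32-fold and Chrm1 1.52-fold. The background is large, since this comparison called 51.3% of probe sets, with 24.1% going up and 27.2% going down. The share called was 66.1% with naive replicates 1 and 2 alone and 50.5% with replicates 3 and 4 alone. Of the 5 member genes 3 were called, a share near that of all probe sets, so the count is no result about the members.

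Chrnb2 read 7.21 and 7.06 in MPTP FVB/N prefrontal cortex, 7.27 and 7.25 in TgS, with 7.29 and 7.36 in TgR. Every TgS and TgR array lay above all naive prefrontal arrays, and the lower FVB/N array lay within their range. The difference was 0.40 ± 0.06 (adjusted p = 2.6e-05, limma). It was 0.50 with naive replicates 1 and 2 as the reference (adjusted p = 7.9e-07, limma) and 0.31 with replicates 3 and 4 (adjusted p = 0.00073, limma). By strain it was 0.49 ± 0.11 in TgS (adjusted p = 0.0018, limma), 0.50 ± 0.11 in TgR (adjusted p = 0.0025, limma) and 0.23 ± 0.11 in FVB/N (adjusted p = 0.17, limma). The same strains were called with either pair of naive replicates as the reference.

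Chrm1 read 9.16 and 9.28 in MPTP FVB/N prefrontal cortex, 9.14 and 8.94 in TgS, with 9.23 and 8.87 in TgR. All lay above naive replicates 3 and 4 of every strain (8.39 to 8.71), and naive FVB/N replicates 1 and 2 (8.92 and 9.07) lay within the MPTP range. The difference was 0.61 ± 0.10 (adjusted p = 9.4e-05, limma), with 0.68 against replicates 1 and 2 and 0.53 against replicates 3 and 4, each called. By strain it was 0.63 ± 0.18 in TgS (adjusted p = 0.012, limma), 0.74 ± 0.18 in TgR (adjusted p = 0.0056, limma) and 0.45 ± 0.18 in FVB/N (adjusted p = 0.11, limma). The FVB/N value was 0.67 against replicates 3 and 4 alone and was called (adjusted p = 0.0016, limma). Without MPTP replicate 1 of TgR the TgR call was lost at 0.56, and without MPTP replicate 1 of TgS the TgS call was lost at 0.53.

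These strain comparisons called 10.9% of probe sets in FVB/N, 32.2% in TgS and 29.4% in TgR. With naive replicates 3 and 4 alone the FVB/N comparison called 18.9%. The test of whether the response differed from FVB/N called no member in TgS (0% of probe sets called) or in TgR (0.00442%), and no member reached an unadjusted p under 0.05 in either (limma). With naive replicates 1 and 2 alone the same test called Chrm1 in TgS (0.63) and TgR (0.74) and Chrnb2 in TgS (0.41). Each was a larger response than in FVB/N, and 10.9% of probe sets were called for TgS and 10.4% for TgR. With replicates 3 and 4 alone Chrm1 turned to -0.27 and -0.14, not called. The bioB hybridisation controls, mean of 6 probe sets, read 7.48 to 7.90 on MPTP prefrontal arrays, 7.43 to 8.06 on naive replicates 1 and 2 and 6.71 to 7.22 on naive replicates 3 and 4. The actin 5' minus 3' difference read -0.83 to -0.62, -2.30 to -0.79 and -0.92 to -0.72 on the same arrays. The part of these array differences in the receptor values was not tested.

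Isl1 and Lhx8 in the MPTP prefrontal cortex depended on which naive arrays were the reference. Isl1 read 5.35 and 5.25 in MPTP FVB/N, 5.45 and 5.66 in TgS, with 5.41 and 5.32 in TgR. It was called lower by 0.51 ± 0.17 (log2; adjusted p = 0.017, limma). Against naive replicates 1 and 2 alone it was lower by 1.04 (adjusted p = 0.00046, limma), and against replicates 3 and 4 it differed by 0.022 (adjusted p = 0.79, limma). Removing MPTP replicate 1 of TgS also ended the call, at -0.47 (adjusted p = 0.051, limma). The second Isl1 probe set gave -0.33 ± 0.06 with all naive arrays (adjusted p = 0.0004, limma) and -0.13 against replicates 3 and 4 (adjusted p = 0.16, limma). By strain this probe set was called in FVB/N (-0.42) and TgR (-0.32) and not in TgS (-0.24).

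Lhx8 read 4.02 and 4.11 in MPTP FVB/N prefrontal cortex, 4.19 and 4.20 in TgS, with 4.26 and 4.01 in TgR. It differed from naive by -0.31 ± 0.15 (adjusted p = 0.08, limma), with -0.62 against replicates 1 and 2, which was called, and -0.01 against replicates 3 and 4. For Lhx8 and both Isl1 probe sets the excess thus lay in naive replicates 1 and 2, which also had the higher striatal marker sums given above.

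Slc18a3 read 6.00 and 6.00 in MPTP FVB/N prefrontal cortex, 5.86 and 5.85 in TgS, with 5.97 and 5.93 in TgR. The 6 MPTP arrays lay close together, above every array of naive replicates 3 and 4 and within the range of replicates 1 and 2. The difference was 0.20 ± 0.08 (adjusted p = 0.051, limma), with 0.09 against replicates 1 and 2 and 0.32 against replicates 3 and 4, where it was called (adjusted p = 0.0018, limma).

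**Figure D3:**
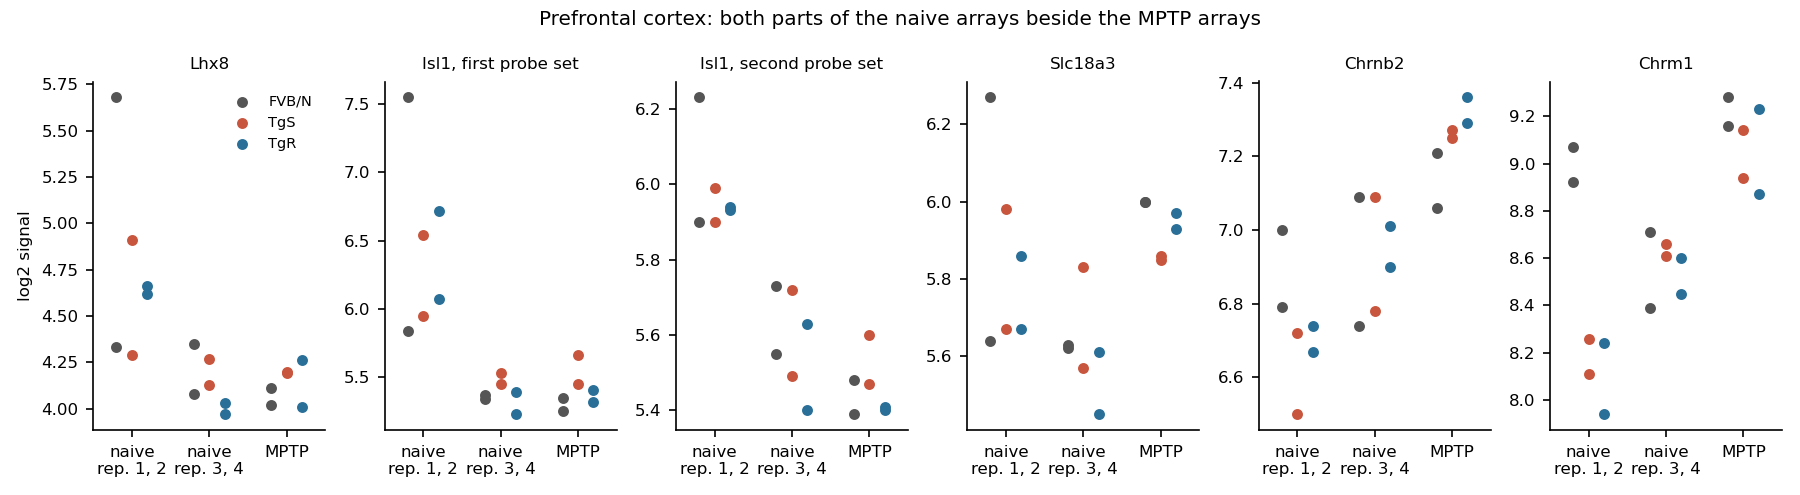
Log2 signal (y axis) of each member probe set in the prefrontal cortex, with naive replicates 1 and 2, naive replicates 3 and 4 and MPTP arrays side by side (6 arrays each, coloured by strain). Lhx8 and both Isl1 probe sets are raised in naive replicates 1 and 2 and alike in the other arrays, while Chrnb2 and Chrm1 are highest on the MPTP arrays.

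Other receptor genes moved in the same comparison. All 3 measured muscarinic genes were called higher in MPTP prefrontal cortex, Chrm4 by 0.62 ± 0.12 and Chrm3 by 0.50 ± 0.09 beside Chrm1, with a median of 0.61 against -0.03 over all probe sets. Chrm3 read 0.94 higher against naive replicates 1 and 2 and 0.05 against replicates 3 and 4, where it was not called, so that 2 of 3 remained. Of the 14 nicotinic genes, 2 were higher (Chrnb2 and Chrnb1, the latter by 0.15) and 4 lower (Chrnd, Chrng, Chrna6 and Chrna2, by 0.19 to 0.21), beside 24.1% and 27.2% of all probe sets. Against replicates 1 and 2 alone 2 were higher, Chrnb2 and Chrna7, and 6 lower. Against replicates 3 and 4 alone 4 were higher, Chrnb2, Chrna4, Chrnb1 and Chrne, and 1 lower, Chrng. Chrna4 then differed by 0.22 (adjusted p = 0.0065, limma), against -0.09 with replicates 1 and 2. These values are from the brightest probe set of each gene. The dimmer Chrng probe sets averaged 4.79 and 3.90 in naive and 4.70 and 3.89 in MPTP prefrontal cortex. The dimmer Chrna6 probe set averaged 5.385 and 5.25 in the same order. No detection calls were used for these low signals.

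Of the genes that carry the M1 signal into the cell, 6 were measured. With all naive arrays 2 were called higher and 0 lower, beside 24.1% and 27.2% of all probe sets. Gnaq, the Gq alpha subunit, was higher by 0.46 ± 0.09 and Plcb4, a phospholipase C that it activates, by 0.70 ± 0.15. Neither was called against naive replicates 3 and 4 alone, at 0.16 for Gnaq and 0.06 for Plcb4. Against replicates 1 and 2 alone 4 of the 6 genes were higher and 1 lower, with 66.1% of all probe sets called. Against replicates 3 and 4 alone 0 were higher and 1 lower, with 50.5% called. Kcnq5 was called in both fits, at 0.20 and at -0.24. Slc5a7, the choline transporter of cholinergic terminals, was lower by 0.28 ± 0.10 with a difference of -0.32 against replicates 3 and 4, which was called, and of -0.24 against replicates 1 and 2, which was not (adjusted p = 0.08, limma).

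In the caudate-putamen no member was called between MPTP and naive arrays. Averaged over strains the differences were -0.32 ± 0.18 for Lhx8, -0.19 ± 0.21 for Isl1, -0.26 ± 0.10 for Slc18a3, -0.13 ± 0.08 for Chrnb2 and 0.07 ± 0.13 for Chrm1. In limma 1 member gene, Slc18a3, reached an unadjusted p under 0.05, and 1.43% of all probe sets were called. The second Isl1 probe set gave -0.31 ± 0.08 (adjusted p = 0.068, limma).

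MPTP values by strain went in different directions for Slc18a3 and Lhx8. Slc18a3 read 7.73 and 7.60 in MPTP FVB/N, 7.71 and 7.34 in TgS, and 6.85 on the single TgR array. That is 0.30 ± 0.17 above naive in FVB/N, and -0.50 ± 0.17 in TgS and -0.57 ± 0.21 in TgR, none called (adjusted p = 0.2 to 0.92, limma). Lhx8 read 8.83 and 9.01, 8.61 and 8.15, and 8.09 in the same order, which gives 0.62 ± 0.29, -0.72 ± 0.29 and -0.87 ± 0.36, none called. The tests of a different response from FVB/N gave -0.80 for Slc18a3 and -1.34 for Lhx8 in TgS, and -0.87 and -1.49 in TgR, again not called. These values do not use the prefrontal arrays, but in a fit with only naive prefrontal replicates 3 and 4 the tests called Lhx8 in TgS (adjusted p = 0.0078, limma) and TgR (adjusted p = 0.015, limma) and Slc18a3 in TgS (adjusted p = 0.036, limma). That fit also called the TgS values of Slc18a3 (adjusted p = 0.037, limma) and Lhx8 (adjusted p = 0.025, limma) below naive.

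Isl1 read 9.94 and 10.27 in MPTP FVB/N caudate-putamen, 10.13 and 9.93 in TgS and 10.18 in TgR, close to the naive arrays. Chrnb2 read 6.76 and 6.71, 6.98 and 6.91, and 6.83, so TgS arrays lay below naive TgS and differed by -0.37 ± 0.12 (adjusted p = 0.19, limma). Chrm1 read 8.21 and 8.21, 8.34 and 8.30, and 8.47, within or beside the naive range. The 1 call was for the second Isl1 probe set in TgS, at -0.55 ± 0.13 (adjusted p = 0.04, limma), and it was lost without TgS naive replicate 1 (-0.32), MPTP replicate 1 (-0.57) or MPTP replicate 2 (-0.52). It was also lost without the model term that parts the naive prefrontal arrays (adjusted p = 0.48, limma), after quantile normalization (adjusted p = 0.064, limma) and with the caudate-putamen fitted alone (adjusted p = 0.078, limma).

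These strain comparisons called 0.265% of probe sets in FVB/N, 1.41% in TgS and 0.11% in TgR. At an unadjusted p under 0.05 they held 1, 3 and 2 of the 5 member genes (limma). The tests of a different MPTP response called 0.601% of probe sets for TgS and 0.181% for TgR, with 3 and 2 member genes at an unadjusted p under 0.05.

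The MPTP response differed between the regions for 3 members. The difference of responses, caudate-putamen minus prefrontal cortex, was -0.53 ± 0.10 for Chrnb2 (adjusted p = 0.0009, limma), -0.54 ± 0.17 for Chrm1 (adjusted p = 0.022, limma) and -0.46 ± 0.13 for Slc18a3 (adjusted p = 0.017, limma). This test called 27.7% of probe sets. With naive prefrontal replicates 1 and 2 alone Slc18a3 was not called, at -0.34 (adjusted p = 0.066, limma), nor was it without the model term that parts those arrays (adjusted p = 0.057, limma), whereas Chrnb2 and Chrm1 were called with either pair. Without MPTP prefrontal replicate 1 of TgR, Chrm1 was at -0.48 and just missed the call (adjusted p = 0.051, limma). All 3 measured muscarinic genes were called in this direction with all naive arrays, and 2 of 3, Chrm1 and Chrm4, with replicates 3 and 4 alone.

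Between strains of the naive caudate-putamen 2 of the 5 member genes were called, both in TgS against FVB/N, and the Slc18a3 call was not steady. In TgS, Chrnb2 was 1.62-fold and Slc18a3 1.57-fold above FVB/N, and Lhx8 was 1.74-fold above without passing the test. This comparison called 2.19% of probe sets and 2 of the 5 member genes. Chrnb2 read 7.37 and 7.25 in TgS against 6.65 and 6.58 in FVB/N, with no overlap, and differed by 0.70 ± 0.12 (adjusted p = 0.0034, limma). It was called when any 1 of these 4 arrays was left out, at 0.64 to 0.76 (adjusted p = 0.014 to 0.05, limma), with 0.66 when that was FVB/N replicate 2, the array with conflicting labels. A higher Chrnb2 in this comparison was already known when the members were chosen, so it is a description.

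Slc18a3 read 8.10 and 7.94 in TgS against 7.19 and 7.54 in FVB/N, a difference of 0.66 ± 0.17 (adjusted p = 0.045, limma). The call ended without FVB/N replicate 1 (0.48), TgS replicate 1 (0.58) or TgS replicate 2 (0.74), with adjusted p up to 0.54 (limma). It also ended without the model term that parts the naive prefrontal arrays (adjusted p = 0.17, limma) and after quantile normalization (0.61). It held at 0.83 without FVB/N replicate 2. The second Isl1 probe set was 0.58 ± 0.13 higher (adjusted p = 0.021, limma) and the first 0.28 ± 0.34 (adjusted p = 0.77, limma), so the 2 probe sets disagreed on the call. The second probe set's call ended without FVB/N replicate 1 (0.46) or TgS replicate 1 (0.35), after quantile normalization (0.54) or without the model term. Lhx8 differed by 0.80 ± 0.29 (adjusted p = 0.2, limma), or by 1.11 without FVB/N replicate 2, and Chrm1 differed by -0.10 ± 0.21.

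In TgR the naive caudate-putamen called no probe set against FVB/N at all (0%), and 2 member genes reached an unadjusted p under 0.05 (limma). Chrnb2 in TgR lay between the other strains on every array, 0.36 ± 0.12 above FVB/N (95% interval 0.10 to 0.61) and 0.34 ± 0.12 below TgS. Slc18a3 in TgR was near FVB/N, with a difference of 0.06 (95% interval -0.30 to 0.41). The direct comparison of TgS with TgR called 0.773% of probe sets and no member, with 2 member genes at an unadjusted p under 0.05 (limma).

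The other cholinergic genes gave a mixed picture in TgS. Of 7 identity genes 2 were called higher, Slc18a3 and Ngfr (0.77 ± 0.18), and the list's median was 0.66 against -0.03 over all probe sets. Ache was 0.65 ± 0.14 higher, reading 10.22 and 10.37 in TgS against 9.65 and 9.64 in FVB/N, and whether its probes also read the human transgene was not tested. Slc5a7 read 6.99 and 6.89 against 5.86 and 6.61 and was not called. Chrnb2 was the 1 called gene of 14 nicotinic subunits, and none of the 3 muscarinic or 6 M1 signalling genes was called. After MPTP, Ache and Ngfr were called lower in TgS, by 0.66 and 0.79, and their response differed from FVB/N by -1.11 and -1.20.

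Markers of neighbouring nuclei also differed between these groups, only in part in the order of the members. The summed thalamic markers (7 measured) read 12.24 to 12.69 in naive TgS, 11.46 to 11.68 in naive FVB/N and 11.42 to 11.61 in naive TgR. After MPTP they read 11.90 to 12.04 in FVB/N, 11.42 to 11.52 in TgS and 10.34 on the TgR array. The summed hypothalamic markers (4 measured: Oxt, Avp, Hcrt and Gal) read 12.41 to 12.93 in naive TgS, 11.05 to 11.49 in naive FVB/N, and 10.09 on the MPTP TgR array.

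Of these markers 3 of 7 thalamic and 2 of 4 hypothalamic genes were called higher in naive TgS than in naive FVB/N. Cortical glutamatergic markers went the other way, with 3 of 5 called lower and sums of 11.20 to 11.52 in naive TgS against 11.71 to 11.86 in naive FVB/N. Striatal projection neuron sums read 14.66 to 14.85 in naive TgS, 14.87 to 14.97 in naive FVB/N and 14.94 to 15.03 in naive TgR. Slc18a3 followed the same order as the thalamic sums at its ends, highest in naive TgS, then MPTP FVB/N, and lowest on the TgR MPTP array. Chrnb2 was also highest in naive TgS among caudate-putamen groups, but read 6.735 in MPTP FVB/N, 11th of its 12 group means. Thalamic sums there were 11.90 to 12.04 and hypothalamic sums 11.85 to 12.13. In naive TgR, Chrnb2 was 0.355 and Lhx8 0.655 above naive FVB/N, neither called. Thalamic sums of naive TgR were 11.42 to 11.61 against 11.46 to 11.68 in naive FVB/N. Markers of septal and pallidal GABA neurons (5 measured) stayed within 12.40 to 12.62 in all caudate-putamen arrays, and myelin markers (5 measured) within 14.45 to 14.82. The septal and pallidal sum read 12.11 to 12.78 in the prefrontal cortex, so it did not separate the regions. A sum follows its brightest genes, and Nkx2-1 read only 5.93 to 6.18 in the caudate-putamen. The sum therefore cannot show whether the share of septal or pallidal tissue was steady. Choroid plexus markers (5 measured) ranged from 10.93 to 14.02. Array signals have no 0, so absent markers could not be counted, and the part of these markers in the strain values was not tested.

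**Figure D4:**
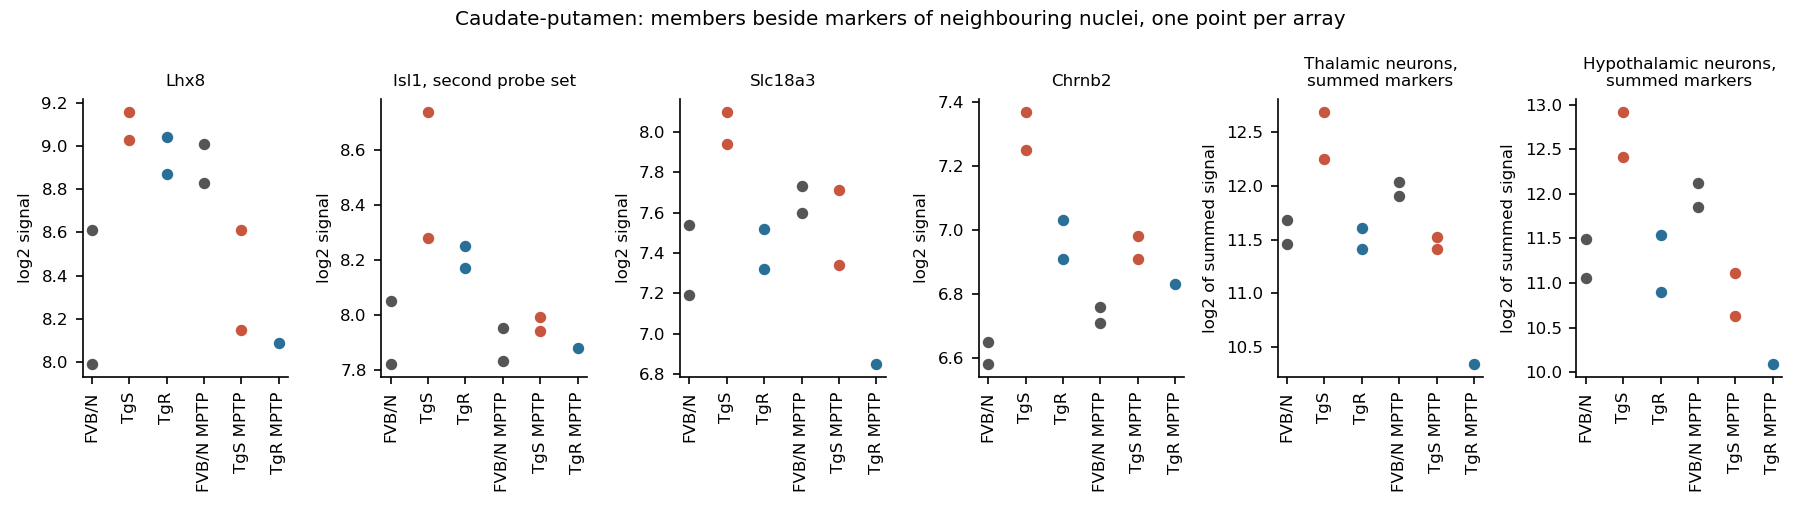
Log2 signal (y axis, first 4 panels) of Lhx8, the second Isl1 probe set, Slc18a3 and Chrnb2 in each caudate-putamen group (x axis, 1 point per array), beside the log2 of the summed signal of 7 thalamic and 4 hypothalamic markers (last 2 panels). The naive TgS group has the highest mean in all 6 panels, though not on the brighter Isl1 probe set, which is left out here and has naive TgR (10.42) above naive TgS (10.37), and the TgR MPTP array is lowest for Slc18a3 and both marker sums.

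In the prefrontal cortex no member was called between strains. The naive comparisons called 10.9% of probe sets for TgS against FVB/N, 2.26% for TgR against FVB/N and 18.6% for TgS against TgR. The largest member difference was that of Chrm1, -0.36 ± 0.15 in TgS and -0.47 ± 0.15 in TgR against FVB/N (adjusted p = 0.12 and 0.076, limma). FVB/N replicates 1 and 2 read 8.92 and 9.07, the highest naive arrays, and are those with the low Gdpd3 signal. With replicates 1 and 2 alone the Chrm1 differences were -0.81 and -0.91 and were called. That fit called 23.4% of probe sets for TgS and 32% for TgR against FVB/N. With replicates 3 and 4 alone the Chrm1 differences were 0.085 and -0.025 and were not called. In naive TgS and TgR, 1 member gene each reached an unadjusted p under 0.05 against FVB/N, and none between TgS and TgR (limma).

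Among MPTP prefrontal arrays the strain comparisons called 0.362% of probe sets for TgS against FVB/N, 0.212% for TgR against FVB/N and 1.14% for TgS against TgR. No member was called, and none reached an unadjusted p under 0.05 (limma). Among MPTP caudate-putamen arrays the shares were 0.694%, 1.04% and 1.07% in the same order, again with no member called. There 0, 2 and 1 member genes had an unadjusted p under 0.05.

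The strain difference of Chrnb2 was itself larger in the caudate-putamen than in the prefrontal cortex. TgS minus FVB/N was 0.83 ± 0.15 higher in the naive caudate-putamen than in the naive prefrontal cortex (adjusted p = 0.011, limma). The test called 1.02% of probe sets. The value contains the caudate-putamen difference that was known when the members were chosen, so it is a description. Without caudate-putamen FVB/N replicate 1 it was 0.86 and not called (adjusted p = 0.091, limma), and the call was also lost without the model term for the naive prefrontal arrays (adjusted p = 0.10, limma). The same test called no other member gene, with Slc18a3 at 0.68 ± 0.21, Lhx8 at 1.01 ± 0.36 and Chrm1 at 0.27 ± 0.25. With naive prefrontal replicates 1 and 2 alone it called Slc18a3 (0.79) and Chrm1 (0.71) too, but then 17.4% of all probe sets. With replicates 3 and 4 alone Chrm1 was at -0.18 and neither gene was called. For TgR it called no probe set (0%), with Chrnb2 at 0.43 ± 0.15 and 3 member genes at an unadjusted p under 0.05 (limma). With replicates 1 and 2 alone the TgR test called Chrnb2 (0.55) and Chrm1 (1.01), and 17.9% of all probe sets.

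**Figure D5:**
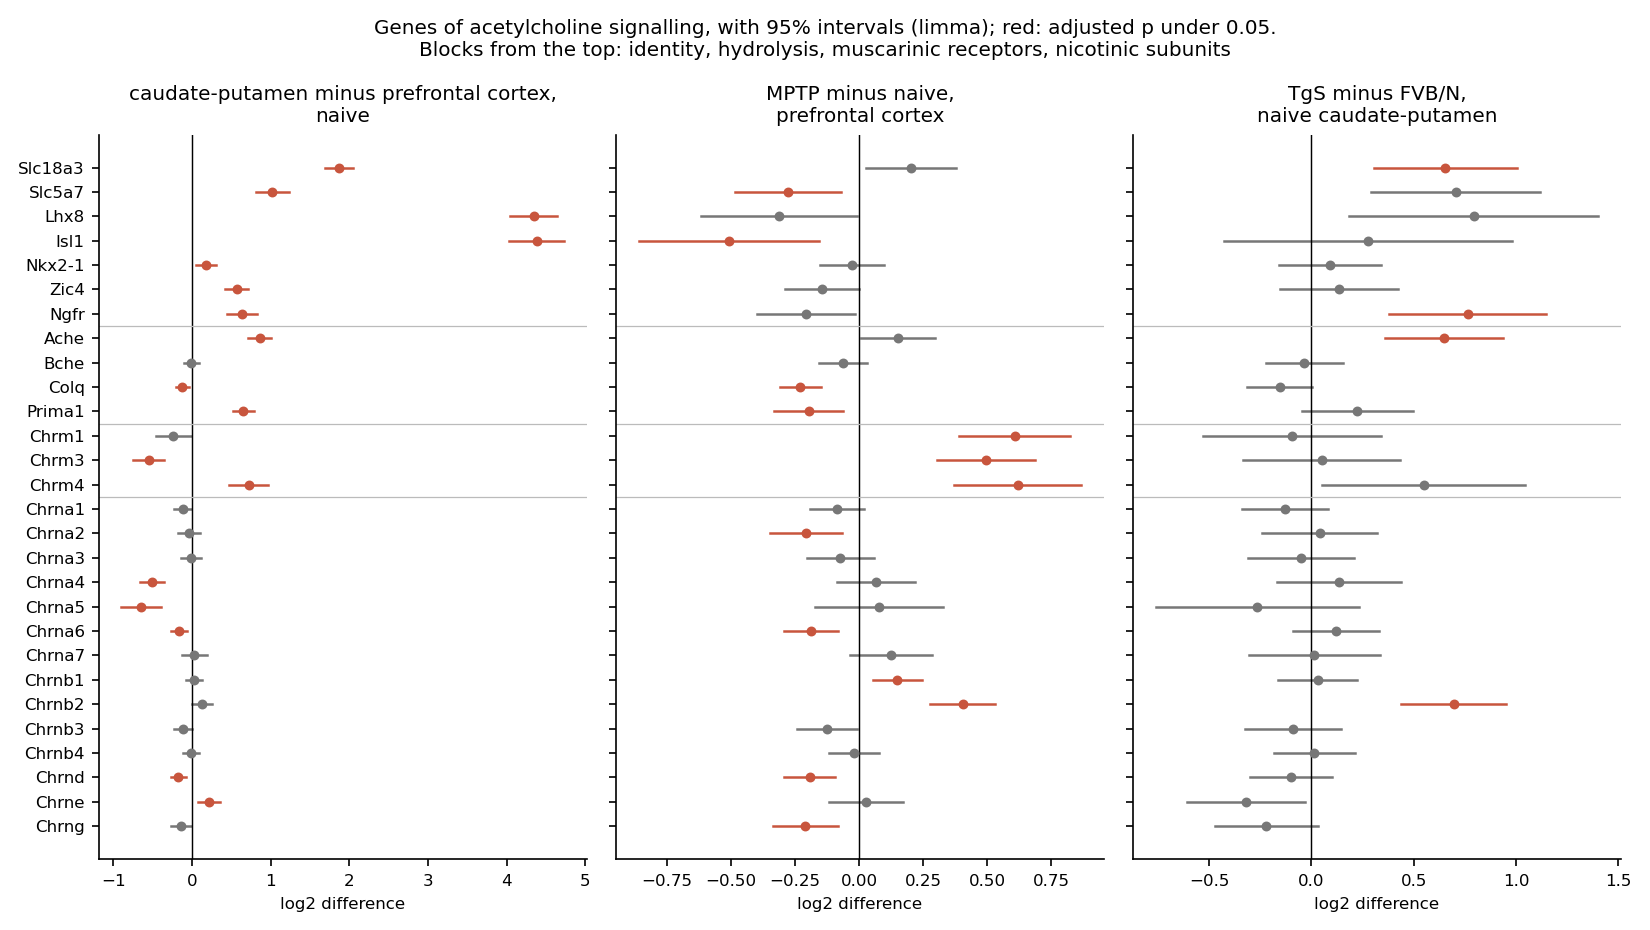
Log2 differences (x axis) with 95% intervals from limma for the measured genes of cholinergic identity, acetylcholine hydrolysis, muscarinic receptors and nicotinic subunits (y axis, blocks from the top) in 3 comparisons; red marks an adjusted p under 0.05. All 7 identity genes lie above 0 between regions, all 3 muscarinic genes lie above 0 in the prefrontal cortex after MPTP, and Chrnb2 is the only called nicotinic subunit in naive TgS caudate-putamen.

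The order of the 12 group means differed by role. For Lhx8, Isl1 and Slc18a3 every caudate-putamen group stood above every prefrontal group. Slc18a3 ran in the caudate-putamen from naive TgS (8.02) through MPTP FVB/N (7.67), MPTP TgS (7.53), naive TgR (7.42) and naive FVB/N (7.37) to MPTP TgR (6.85). Its 4 middle groups overlapped their neighbours, and the first and last did not. Lhx8 ran from naive TgS (9.10), naive TgR (8.96) and MPTP FVB/N (8.92), each overlapping the next, to MPTP TgS (8.38), naive FVB/N (8.30) and MPTP TgR (8.09).

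Isl1 on its brighter probe set ran from naive TgR (10.42) and naive TgS (10.37), which overlapped, through MPTP TgR (10.18), MPTP FVB/N (10.11) and naive FVB/N (10.10) to MPTP TgS (10.03), where each of these 4 groups overlapped the next in the order. Chrnb2 mixed the regions: MPTP TgR prefrontal cortex (7.33), naive TgS caudate-putamen (7.31) and MPTP TgS prefrontal cortex (7.26) stood at the top, each overlapping the next, and naive FVB/N caudate-putamen (6.62) was lowest. Chrm1 placed the 3 MPTP prefrontal groups first (9.22 in FVB/N, 9.05 in TgR and 9.04 in TgS, each overlapping the next), with naive FVB/N prefrontal cortex next (8.77). The other 8 groups lay between 8.17 and 8.47.

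The genes most like each member were found by Pearson correlation of the log2 signals with every other gene, 1 probe set per gene. Over all 29 arrays, where the gap between the regions sets the value for the first 3 members, Slc18a3 was most like Lhx8 (r = 0.97), Grb10 and Rarb. Lhx8 was most like Isl1, Ecel1 and Rarb (each r = 0.99), and Isl1 like Drd2 and Rgs9, genes of striatal projection neurons, and Lhx8 (each r = 0.99). Chrnb2 was most like Tom1l2, Mgat3 and Cacna1e (each r = 0.84), and Chrm1 like Tyro3 (r = 0.92), Clip2 (r = 0.90) and Mob2 (r = 0.88).

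Within the 11 caudate-putamen arrays the nearest genes were others. They were Leprotl1 (r = 0.99), Erp44 and Scg2 for Slc18a3, Osr1 (r = 0.95), Npy2r and Nts for Lhx8, and Smarcal1 (r = 0.92), Robo1 and Psmd12 for Isl1. For Chrnb2 they were Nfu1, Sars and Mturn (r = 0.94 to 0.95), and for Chrm1 Itgb1bp1 (r = 0.96), Kcnq5 and Klc3. There Lhx8 was 256th of 12392 genes in likeness to Slc18a3 (r = 0.77) and Isl1 was 2656th (r = 0.27). Arrays of a group share their strain and treatment, and these values are descriptions with no test.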

How the data were processed

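The deposited table holds log2 signals of 22690 probe sets on 29 arrays, which the authors computed with RMA (Affymetrix Expression Console and Affymetrix Power Tools are also named), per the submitters' processing notes, without versions or settings. The 64 array controls were left out. The values were used as deposited, so signals are compressed at the low end, and precision is limited by the number of arrays.

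A linear model (limma 3.58.1, R 4.3.3) was fitted to all arrays, with a mean for each of 12 groups and a term for the spelling that parts naive prefrontal replicates 1 and 2 from 3 and 4, leaving 16 residual degrees of freedom. The term is coded so that each group estimate is the plain mean of its arrays. It does not act on the MPTP prefrontal arrays, which carry the spelling of naive replicates 1 and 2. Moderated two-sided tests were adjusted by Benjamini-Hochberg within each of 29 comparisons. Of these, only the naive regional comparison had its calls checked on simulated data. The simulated arrays had independent noise and no gap between the naive prefrontal pairs of replicates. No array was dropped or imputed, and the single TgR array is assumed to vary like the rest.

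The members and gene lists were chosen with earlier results of these data known. The naming rule took every probe set of the members, called genes of 6 acetylcholine lists (up to 6 by smallest p), Slc5a7, Ache and measured receptor subunits, and the 3 genes most like each member. Xist, Kdm5d and Gdpd3 were added for what they showed. A gene with several probe sets is represented by the brightest. Marker sums are the log2 of summed linear signals. Alternatives were other treatment of the naive prefrontal arrays, a replicate block, quantile normalization, a low-signal filter, trended variance, probe set means, single-region fits and leaving out each array.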

Additional observations from a re-analysis of the deposited data

Results flagged for a closer look

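Groups of 4 arrays were examined for an array far from the rest, 18 in all (6 probe sets in the naive prefrontal cortex of 3 strains), of which chance flags about 1 in 20. FVB/N replicate 1 stood out for Slc18a3, at 6.27 against 5.62 to 5.64 on the other 3 arrays, and for Lhx8, at 5.68 against 4.08 to 4.35. Isl1 on that array read 7.55 against 5.34 to 5.84. Without this array the prefrontal MPTP difference of Slc18a3 was 0.25 (adjusted p = 0.0067, limma).

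The response to MPTP differed between the regions for Slc18a3 (-0.46), Chrnb2 (-0.53) and Chrm1 (-0.54), as caudate-putamen minus prefrontal log2 differences that each passed the test of the difference itself. The TgS minus FVB/N difference of Chrnb2 was 0.83 larger in the naive caudate-putamen than in the naive prefrontal cortex, also by a direct test. A higher Chrnb2 in naive TgS caudate-putamen was known when the members were chosen, so this value is a description. As given above, the call depended on a single array and on the model term for the naive prefrontal arrays.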

How the results depend on the processing

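The regional calls of Lhx8, Isl1 and Slc18a3 and the prefrontal MPTP rises of Chrnb2 and Chrm1 kept their direction and their call under every alternative run; Lhx8 fell below the low-signal filter and has no value there. Of 342 values of the main comparisons under alternatives other than leaving out an array, 322 kept their side of the threshold and direction. The exceptions follow, and their cause was not tested. The prefrontal MPTP difference of Isl1 was -0.51 and not called without the term for the naive prefrontal spelling and 0.022 with replicates 3 and 4 alone. That of Lhx8 was called at -0.62 with replicates 1 and 2 alone. That of Slc18a3 (0.20, adjusted p = 0.051, limma) was called at 0.32 with replicates 3 and 4 alone, at 0.24 after quantile normalization, and at 0.20 with the low-signal filter, trended variance or probe set means. The regional difference of Chrnb2 was called at 0.23 with replicates 1 and 2 alone, and that of Chrm1 at -0.31 with replicates 3 and 4 alone and at -0.30 after quantile normalization. With replicates 1 and 2 alone the naive prefrontal difference of Chrnb2 from FVB/N was called in TgS (-0.29). That of Chrm1 was called in TgS (-0.81) and TgR (-0.91). The same fit called 23.4% of probe sets in the TgS comparison and 32% in the TgR comparison. In naive TgS caudate-putamen, Slc18a3 lost its call without that term (0.66) and after quantile normalization (0.61), and Lhx8 gained one at 0.80 with replicates 3 and 4 alone and with each region fitted alone.

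Leaving out each array in turn gave 0.48 to 0.83 for Slc18a3 in naive TgS caudate-putamen, -0.29 to -0.19 for the regional difference of Chrm1 and 0.10 to 0.16 for that of Chrnb2. The prefrontal MPTP difference ranged over 0.17 to 0.25 for Slc18a3, -0.38 to -0.22 for Lhx8 and -0.60 to -0.38 for Isl1. The naive prefrontal difference of Chrm1 from FVB/N ranged over -0.53 to -0.22 in TgS and -0.64 to -0.33 in TgR.

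Pairing by replicate number was examined only between strains within a region and treatment. The correlations of residuals ran from -0.67 to 0.20 over 12 naive prefrontal pairs and from -0.35 to 0.15 over 3 naive caudate-putamen pairs. The model makes the residuals of each naive prefrontal pair of replicates cancel over the strains, which lowers these values, so they cannot exclude pairing. Whether arrays of both regions came from the same mouse was not examined, and the regional tests treat them as independent. The replicate number was also fitted as a block, and numbers above 2 occur only in the naive prefrontal cortex. Averaged over strains, the block therefore left naive prefrontal replicates 1 and 2 as the reference. With it, Lhx8 was called in the prefrontal MPTP comparison at -0.62 and Chrnb2 in the regional comparison at 0.23. Both values equal those with replicates 1 and 2 alone, so here the block is no separate check. Of 174 values with the block, 165 kept their side of the threshold. The block also brought calls in the prefrontal MPTP comparison by strain, which carry the same change of reference. They were for Isl1 in FVB/N (-1.25), TgS (-0.84) and TgR (-1.02), for Lhx8 in FVB/N (-0.85) and for the second Isl1 probe set in TgS (-0.44). With the same change, the block brought a call for the Isl1 difference of responses between regions (0.82). It ended 1 call, that of the second Isl1 probe set for MPTP in TgS caudate-putamen (-0.55, adjusted p = 0.063, limma).

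The number of probe sets called is itself unsteady: in 27 of the 29 comparisons at least 1 alternative moved it over 1.5 times. For TgS against FVB/N in naive caudate-putamen it was 495, against 69 without FVB/N replicate 1 and 2092 with naive prefrontal replicates 3 and 4 alone. For prefrontal MPTP it was 11610 (7592 to 14958), for caudate-putamen MPTP 323 (98 to 1028), for the difference of MPTP responses between regions 6274 (2480 to 11636), and for TgS against FVB/N in naive prefrontal cortex 2471 (385 to 5302). For a prefrontal MPTP response that differs between TgS and FVB/N it was 0, against 2457 with replicates 1 and 2 alone. The lower prefrontal MPTP count comes from probe set means, where fewer features are tested.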
